A study of Mus musculus with 6 samples.

Results

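The genes described here are 102 expressed solute carrier genes of mouse macrophages. Solute carriers are membrane proteins that move nutrients, ions and metabolites across the plasma membrane or the membranes of organelles. The members were the protein-coding rows with a symbol of Slc and a digit whose mean over all libraries was at least 1 FPKM (sequenced fragments scaled for gene length and library size). They were chosen by this mean level and by name, and the rule did not use the difference between the groups. The choice was not blind to that difference, because earlier results of these data were known when members, substrate classes and lists were set. Of 371 protein-coding rows with such a symbol, in a table of 54532 genes, 231 lay under 1 FPKM. Of the remaining 140, 28 were mitochondrial Slc25 carriers and 10 were carriers of glucose, lactate, arginine, cystine and iron left out by name. The 102 that remained came from 36 carrier families on 19 chromosomes. By their names 99 are carriers, and 3 are genes named after a carrier: Slc9a3r1, a scaffold protein, Slc4a1ap, an adaptor, and Slc7a6os, a neighbour on the opposite strand of Slc7a6. RNA-seq had been carried out on bone marrow-derived macrophages, cells matured from marrow precursors in a dish. The labels name 2 groups of 3 libraries, NSUN2-KO and NC. All 6 libraries came from cells polarized to the M1 state with LPS and IFN-γ, so no unstimulated cells enter any comparison. The sources used here do not give how the knockout was made, what NC stands for, or the age, sex and strain of the mice. The series' text gives 3 biological replicates per group in one place and 2 in another. The table holds 3 libraries of each group, all used here, and no label ties a library to an animal. The p-values therefore measure the spread between these libraries.

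Carriers set what a macrophage can take up, store and release. Transporters of the plasma membrane bring in amino acids, sugars, metals, nucleosides and vitamins, those of the lysosome return the products of digestion to the cytosol, and those of the ER and Golgi supply the building blocks of glycoproteins. Activated macrophages are known for a high demand for glucose and arginine and for moving copper and zinc between compartments. NSUN2 is an enzyme that methylates cytosines in RNA, tRNAs above all.

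The libraries corresponded to 35019033 to 45636131 reads. Nsun2 itself measured 1.88, 2.04 and 1.84 FPKM in NC against 0.967, 1.36 and 0.863 FPKM in NSUN2-KO, so its mRNA was reduced and still present. All 8 macrophage markers, among them Adgre1, Csf1r and Itgam, were above 1 FPKM, and their sum was 3929 to 4018 FPKM in NC against 3368 to 3409 FPKM in NSUN2-KO (3 fell and 1 rose). The groups also differed in sex-linked genes: Ddx3y and Eif2s3y averaged 6.57 ± 0.43 and 5.51 ± 0.17 FPKM over the NC libraries (SD, n = 3) and were listed at 0 in each NSUN2-KO library, whereas Xist was present in both groups, at 14.5 ± 0.88 FPKM in NC against 30.6 ± 1.20 FPKM in NSUN2-KO. Summed neutrophil markers were 98.9 to 106.8 FPKM in NC against 79.8 to 83.7 FPKM in NSUN2-KO (5 of 10 above 1 FPKM, Retnlg at 0), and summed dendritic cell markers 5.08 to 6.14 and 8.22 to 9.42 FPKM (2 of 5 above 1 FPKM). Summed stromal markers were 1.39 to 1.52 and 0.417 to 0.654 FPKM, with none of the 5 above 1 FPKM. None of 7 T and NK cell, 5 B cell or 5 erythroid markers reached 1 FPKM, and Cd3e, Cd3g, Hba-a1, Hbb-bs and Slc4a1 were at 0 in every library. The part of these differences in the results below was not tested. The difference in Y-linked genes coincides fully with the groups, so in this design it cannot be told apart from the knockout. In bulk RNA, fewer cells of a type cannot be told apart from less RNA per cell.

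More carriers fell than rose in the NSUN2-KO libraries. Of the 102 members 11 fell, which is 10.8%, against a background of 4.30% of all 9443 tested genes, and 2 rose, which is 1.96%, against a background of 4.19% (limma on log2(FPKM + 1), Benjamini-Hochberg adjusted p below 0.05 over all tested genes). The genes that fell were Slc37a2, Slc2a8, Slc38a7, Slc45a4, Slc12a9, Slc36a1, Slc7a7, Slc35f6, Slc8b1, Slc29a3 and Slc6a6, and those that rose were Slc38a2 and Slc31a1. The differences were small: in the members that fell the mean changed by -9.64% to -24.1%. The median log2 fold change (NSUN2-KO minus NC) was -0.04 over the members and -0.01 over all tested genes, and 61 of the 102 members had a negative value. The ranges of NC and NSUN2-KO did not overlap in 42 members, or 41.2%, against 31.1% of all tested genes. These 42 were 32 with lower and 10 with higher values in NSUN2-KO. Of all tested genes, 1577 (16.7%) were separated with lower and 1364 (14.4%) with higher values. The count of members that fell dropped whichever library was left out, and so did the share of all tested genes. Each such fit compares 3 libraries with 2. Whether the smaller group or the library itself accounts for the lost calls was not tested. Leaving out NC replicate 1, 2 or 3 in turn left 5, 3 and 2 members that fell, and leaving out NSUN2-KO replicate 1, 2 or 3 left 2, 3 and 6. The share of all tested genes that fell in these 6 fits was 3.00%, 1.54%, 1.31%, 1.28%, 2.28% and 2.84%. In the same order, 2, 2 and 0 members rose in the fits without an NC library and 0, 1 and 1 in those without an NSUN2-KO library. Without NC replicate 2 the genes that rose were Slc31a1 and Slc16a10. Slc37a2 and Slc38a7 were called in all 6 of these fits.

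**Figure D1:**
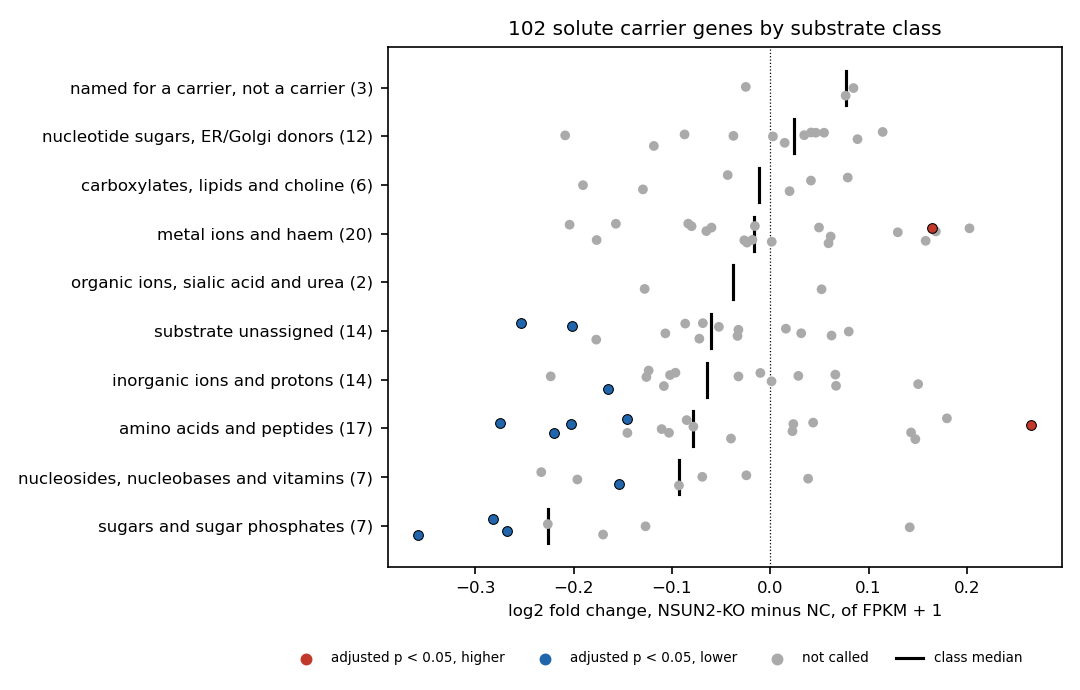
Log2 fold change (NSUN2-KO minus NC, of FPKM + 1; horizontal axis) of each of the 102 members, in rows by substrate class with the class size in brackets; black bars are class medians, and coloured points passed an adjusted p of 0.05. Sugar carriers have the lowest median (-0.23) and 3 of 7 fell, whereas none of the 12 nucleotide sugar carriers passed.

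Carriers of sugars and sugar phosphates had the lowest median of the substrate classes, at -0.23. Of the 7 members 3 fell, against 4.30% of all tested genes, none rose and 6 had a negative log2 fold change. Slc37a2, an exchanger of glucose 6-phosphate for phosphate in the ER membrane, measured 33.7, 34.2 and 35.03 FPKM in NC against 27.0, 26.2 and 26.5 FPKM in NSUN2-KO. Every NC library lay above every NSUN2-KO library, with a fall of 22.6% (log2 fold change -0.36, SE 0.03, limma adjusted p = 0.00113). It was the largest fall of all members on the log2(FPKM + 1) scale, whereas in percent Slc2a8 fell more, by 24.1%. Slc45a4, of a family of proton-coupled sugar carriers, measured 3.86, 4.08 and 4.12 FPKM in NC against 3.26, 3.15 and 3.09 FPKM in NSUN2-KO (log2 fold change -0.27, adjusted p = 0.0237). Its groups did not overlap, but its call held in only 1 of the 6 fits without a library, that without NC replicate 1 (adjusted p 0.0404 to 0.0949 over the 6). Slc2a8, the intracellular glucose transporter GLUT8, measured 2.90, 2.91 and 2.59 FPKM in NC against 2.19, 1.95 and 2.23 FPKM in NSUN2-KO (log2 fold change -0.28, adjusted p = 0.0467). It rested on 220 to 428 reads per library, and its call was lost without any one of the 6 libraries (adjusted p 0.0705 to 0.146). The 4 others did not pass. Slc37a1, another phosphate-linked glucose 6-phosphate carrier, had a log2 fold change of -0.23 (adjusted p = 0.107), and Slc2a9, a urate transporter, of -0.17 (adjusted p = 0.161). Slc37a4, the glucose 6-phosphate translocase that feeds glucose 6-phosphatase, measured 4.57 ± 0.26 FPKM in NC against 5.16 ± 0.57 FPKM in NSUN2-KO (SD, n = 3), with overlapping groups. Slc50a1, a sugar transporter of the SWEET family, also overlapped between groups, at 7.49 ± 1.23 and 6.72 ± 0.13 FPKM. Summed over the class, NC libraries held 57.6 to 60.2 FPKM and NSUN2-KO libraries 48.3 to 49.5 FPKM, and Slc37a2 supplied most of that sum. The number of sugar carriers that fell was 2 without NC replicate 1 and 1 without any one of the other 5 libraries.

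Among 17 carriers of amino acids and peptides 4 fell and 1 rose, against 4.30% lower and 4.19% higher among all tested genes. The class median was -0.08. Slc38a7, which exports glutamine and asparagine from lysosomes, measured 17.4, 18.6 and 17.0 FPKM in NC against 14.9, 14.5 and 13.8 FPKM in NSUN2-KO. All NC values were the higher ones, a fall of 18.4% (log2 fold change -0.27, SE 0.05, adjusted p = 0.0143). Slc36a1, a proton-coupled amino acid carrier found on lysosomes, measured 23.6, 23.6 and 25.3 FPKM in NC against 20.7, 19.5 and 21.6 FPKM in NSUN2-KO (log2 fold change -0.22, adjusted p = 0.0329). Slc7a7, the light chain of an exchanger of basic for neutral amino acids, measured 8.25, 8.80 and 8.48 FPKM in NC against 7.51, 7.32 and 6.95 FPKM in NSUN2-KO (log2 fold change -0.20, adjusted p = 0.0408). Slc6a6, the taurine transporter, was far more abundant, at 119.2, 121.0 and 119.4 FPKM in NC against 109.5, 104.9 and 110.5 FPKM in NSUN2-KO (log2 fold change -0.15, adjusted p = 0.0291). Again no values overlapped between the groups in these 3 genes. Slc36a1 and Slc6a6 kept their call only without NSUN2-KO replicate 3 (adjusted p 0.0362 to 0.119 for Slc36a1 and 0.0438 to 0.104 for Slc6a6 over the 6 fits without a library), and Slc7a7 lost it in all 6 (0.0602 to 0.129).

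The amino acid carrier that rose was Slc38a2, or SNAT2, a sodium-coupled carrier of small neutral amino acids that cells are known to raise when amino acids run short. It measured 6.15, 5.46 and 5.34 FPKM in NC against 7.28, 6.88 and 6.79 FPKM in NSUN2-KO. The NC and NSUN2-KO values did not overlap, and the rise of 23.6% gave a log2 fold change of 0.27 (SE 0.06, adjusted p = 0.0352), which passed in 1 of the 6 fits without a library, that without NC replicate 1 (adjusted p 0.0232 to 0.122). Of 10 carriers listed as induced by ATF4 and amino acid shortage, only Slc38a2, Slc38a1 and Slc3a2 were expressed above 1 FPKM, and Slc38a2 alone passed the test. Slc38a1 measured 2.70 ± 0.21 and 3.09 ± 0.34 FPKM (adjusted p = 0.303). Slc3a2, the heavy chain that carries Slc7a7 and Slc7a8 to the plasma membrane, measured 160.9 ± 4.23 FPKM in NC against 163.4 ± 2.08 FPKM in NSUN2-KO (SD, n = 3). Its log2 fold change had a 95% interval of -0.05 to 0.09, and that of Slc7a8, the neutral amino acid light chain LAT2 at 189.8 ± 5.99 and 195.7 ± 5.26 FPKM, of -0.04 to 0.12. Slc6a19, a sodium-coupled carrier of neutral amino acids, came just short of the threshold with groups that did not overlap, at 20.4 ± 0.29 and 18.4 ± 0.64 FPKM (log2 fold change -0.15, adjusted p = 0.0608). Slc16a10, a carrier of aromatic amino acids, did so in the other direction, at 26.9 ± 1.26 and 29.9 ± 0.26 FPKM (log2 fold change 0.15, adjusted p = 0.0671). The proton-coupled carriers Slc36a1 and Slc36a4 had estimates of opposite sign. The log2 ratio of Slc36a4 to Slc36a1 in FPKM was -1.50, -1.61 and -1.72 in NC and -1.13, -1.16 and -1.25 in NSUN2-KO, a pair chosen after the values were seen and given without a test. The count of lower amino acid carriers was 1 without any one of the NC libraries or of NSUN2-KO replicates 1 and 2, and 3 without NSUN2-KO replicate 3.

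Carriers of lysosomes and endosomes cut across these classes. Of 13 listed carriers above 1 FPKM, 3 fell (Slc38a7, Slc36a1 and Slc29a3) and none rose, against 4.30% lower and 4.19% higher among all tested genes, and their median log2 fold change was -0.11 against -0.01. Of these 3 calls only that of Slc38a7 held without any one library, while Slc36a1 lost its call in 5 of the 6 such fits and Slc29a3 in all 6. The most abundant of them did not pass. Slc15a3, a proton-coupled carrier of histidine and peptides on endolysosomes, measured 315.0 ± 3.76 and 320.2 ± 4.13 FPKM, with a 95% interval of the log2 fold change of -0.04 to 0.09. Its relative Slc15a4, which also acts in endosomal Toll-like receptor signalling, measured 12.03 ± 0.44 and 11.3 ± 0.47 FPKM (adjusted p = 0.306). Slc38a9, the lysosomal arginine sensor upstream of mTORC1, measured 3.01 and 2.72 FPKM on average (log2 fold change -0.11, adjusted p = 0.338). Slc17a5, the sialic acid exporter of lysosomes, had groups that did not overlap, at 13.2 ± 0.69 and 12.04 ± 0.38 FPKM, and did not pass (adjusted p = 0.149). Slc48a1, which returns haem from the phagolysosome, measured 112.6 ± 3.50 and 106.5 ± 1.35 FPKM (adjusted p = 0.172).

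The promoters of members that moved are shown so that their start regions can be compared. Slc37a2 had the largest fall on the log2(FPKM + 1) scale. Slc38a7, Slc36a1 and Slc12a9 are falling genes that hold the letters CACGTG, and Slc31a1 and Slc38a2 are the genes that rose. CACGTG is the E-box core, to which lysosomal regulators of the TFEB family and MYC are known to bind. Each sequence is the 250 bases before the RefSeq start site nearest the start of the deposited gene, GRCm38.p6, written 5′ to 3′ on the gene's strand, with CACGTG in capitals.
Slc37a2, chr9:37255739-37255988, minus strand: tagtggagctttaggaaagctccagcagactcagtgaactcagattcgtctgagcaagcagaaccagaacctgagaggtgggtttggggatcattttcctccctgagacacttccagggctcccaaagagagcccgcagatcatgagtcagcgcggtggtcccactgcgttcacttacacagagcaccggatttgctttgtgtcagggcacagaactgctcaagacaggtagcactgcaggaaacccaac
Slc38a7, chr8:95853492-95853741, minus strand: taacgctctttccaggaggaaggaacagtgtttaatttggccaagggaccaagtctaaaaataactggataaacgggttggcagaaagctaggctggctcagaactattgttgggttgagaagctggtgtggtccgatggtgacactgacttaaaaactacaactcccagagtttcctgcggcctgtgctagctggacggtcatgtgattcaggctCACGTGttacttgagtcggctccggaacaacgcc
Slc36a1, chr11:55204090-55204339, plus strand: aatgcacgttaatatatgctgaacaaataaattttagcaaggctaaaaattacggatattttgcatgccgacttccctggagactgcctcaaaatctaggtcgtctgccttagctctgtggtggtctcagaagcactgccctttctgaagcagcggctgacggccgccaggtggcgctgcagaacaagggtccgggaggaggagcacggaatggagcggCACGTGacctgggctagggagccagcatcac
Slc12a9, chr5:137333583-137333832, minus strand: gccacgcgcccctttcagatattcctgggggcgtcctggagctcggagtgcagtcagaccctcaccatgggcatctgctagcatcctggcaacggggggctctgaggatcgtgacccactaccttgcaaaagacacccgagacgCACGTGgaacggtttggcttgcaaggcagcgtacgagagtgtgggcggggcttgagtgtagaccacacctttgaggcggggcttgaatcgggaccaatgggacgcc
Slc31a1, chr4:62360451-62360700, plus strand: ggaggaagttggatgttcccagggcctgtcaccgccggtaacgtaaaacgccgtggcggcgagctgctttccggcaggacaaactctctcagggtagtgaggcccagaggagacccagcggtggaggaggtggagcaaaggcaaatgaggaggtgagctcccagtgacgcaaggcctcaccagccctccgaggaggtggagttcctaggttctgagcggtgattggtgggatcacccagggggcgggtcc
Slc38a2, chr15:96699729-96699978, minus strand: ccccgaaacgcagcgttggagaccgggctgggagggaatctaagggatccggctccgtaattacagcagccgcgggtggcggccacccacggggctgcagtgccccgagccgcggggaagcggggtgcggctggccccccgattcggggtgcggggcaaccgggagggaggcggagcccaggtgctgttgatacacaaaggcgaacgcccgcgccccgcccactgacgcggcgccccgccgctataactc
A window was matched by symbol for 79 of the 102 members and 6995 of the tested genes. CACGTG, which reads the same on both strands, stood in 3 of the 8 falling members with a window, in 11 of the 79 members (13.9%), in neither gene that rose and in 8.86% of all matched tested genes. The shorter ACGTG core of hypoxia response elements, which every CACGTG contains, stood in 24.1% of members and 22.8% of all. TGATGNAA, the composite site of ATF4, stood in 2 of the 79 members, 1 of them the falling Slc7a7, and in 2.02% of all. GAGGAA, a core bound by the macrophage factor PU.1, stood in 22.8% of members and 23.0% of all. Both strands were searched, and a match is a run of letters, not a shown binding site. Sequence outside these windows, introns included, was not searched, so a gene without a match may hold one elsewhere.

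Carriers of metal ions and haem were the largest class, with a median of -0.02. Of the 20 members 1 rose (5.0%, against 4.19% of all tested genes) and none fell. Slc31a1, or CTR1, the high-affinity copper importer, measured 173.7, 171.1 and 168.1 FPKM in NC against 192.4, 191.4 and 191.5 FPKM in NSUN2-KO. The 3 knockout values lay within 1 FPKM of each other and above every NC value, a rise of 12.2% (log2 fold change 0.16, SE 0.03, adjusted p = 0.0117). The call was lost without NC replicate 3 or NSUN2-KO replicate 1 (adjusted p 0.0218 to 0.0706 over the 6 fits without a library). Slc31a2, or CTR2, a related copper protein of endosomes whose gene ends 62.3 kb before Slc31a1 on chromosome 4, measured 235.4, 244.5 and 245.2 FPKM in NC against 234.9, 231.8 and 226.4 FPKM in NSUN2-KO. Those groups were separated by less than 1 FPKM and the test did not pass (log2 fold change -0.06, adjusted p = 0.231). The log2 ratio of Slc31a1 to Slc31a2 was -0.44, -0.52 and -0.54 in NC and -0.29, -0.28 and -0.24 in NSUN2-KO, again a pair chosen after the values were seen and given without a test. Of the zinc carriers none passed. Slc30a1, the zinc exporter of the plasma membrane, measured 17.4 ± 0.16 and 18.1 ± 1.36 FPKM, and Slc39a1, the most abundant zinc importer here, 87.6 ± 2.82 and 86.2 ± 1.39 FPKM. Slc39a14, an importer of zinc and iron known to be raised in inflammation, measured 3.35 ± 0.22 and 2.85 ± 0.01 FPKM with groups that did not overlap (log2 fold change -0.18, adjusted p = 0.114), and Slc30a9 4.23 ± 0.37 and 5.01 ± 0.14 FPKM (log2 fold change 0.20, adjusted p = 0.0905). The magnesium carriers Slc41a2 and Slc41a3 had estimates of opposite sign, 0.13 (adjusted p = 0.0995) and -0.20 (adjusted p = 0.113).

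Nucleoside, nucleobase and vitamin carriers leaned lower, with a median of -0.09 and 6 of 7 estimates negative. Only 1 of the 7 fell, against 4.30% of all tested genes. Slc29a3, the lysosomal nucleoside exporter ENT3, measured 42.9, 44.0 and 41.8 FPKM in NC against 38.8, 37.1 and 39.4 FPKM in NSUN2-KO. Its groups did not overlap and it fell by 10.3% (log2 fold change -0.15, SE 0.04, adjusted p = 0.0433), but the call was lost without any one of the 6 libraries (adjusted p 0.0567 to 0.129). Slc28a2, a concentrative carrier of purine nucleosides and one of the most abundant members, measured 234.6 ± 5.03 and 223.7 ± 10.6 FPKM with overlapping groups. Slc23a2, the ascorbate transporter SVCT2, measured 127.0 ± 1.31 and 119.1 ± 4.78 FPKM with groups that did not overlap (log2 fold change -0.09, adjusted p = 0.148). Slc52a2, a riboflavin transporter, had the largest estimate of the class, -0.23, at 2.49 ± 0.26 and 1.97 ± 0.05 FPKM (adjusted p = 0.0951). Slc46a3, a lysosomal carrier, measured 3.27 ± 0.38 and 2.73 ± 0.38 FPKM (adjusted p = 0.247).

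Of 14 carriers of inorganic ions and protons 1 fell (7.14%, against 4.30% of all tested genes), and the median was -0.06. Slc8b1, or NCLX, the mitochondrial exchanger of sodium for calcium, measured 71.9, 75.7 and 72.1 FPKM in NC against 64.1, 64.8 and 66.7 FPKM in NSUN2-KO. All NSUN2-KO values were the lower ones (log2 fold change -0.16, SE 0.03, adjusted p = 0.0269), and the call held only without NC replicate 1 or NSUN2-KO replicate 3 (adjusted p 0.0414 to 0.106 over the 6 fits). The potassium-chloride cotransporter Slc12a7 had a larger estimate at a lower level, 4.85 ± 0.20 and 4.01 ± 0.27 FPKM (log2 fold change -0.22, adjusted p = 0.0626). The anion exchanger Slc4a2 (7.47 ± 0.25 and 6.77 ± 0.30 FPKM, adjusted p = 0.167) and the cotransporter Slc12a4 (7.74 ± 0.20 and 7.11 ± 0.30 FPKM, adjusted p = 0.205) also had separate groups and did not pass.

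The remaining classes held fewer changes. None of 12 carriers of nucleotide sugars and other donors for the ER and Golgi passed, and their median was 0.02. The estimate with the smallest p there was Slc35b2, the Golgi carrier of the sulfate donor PAPS, at 8.92 ± 0.70 and 7.57 ± 0.21 FPKM (log2 fold change -0.21, adjusted p = 0.0713). Slc35a3 (0.11, adjusted p = 0.236), Slc35c1, the GDP-fucose carrier (-0.12, adjusted p = 0.393), and Slc35b1 (0.04, adjusted p = 0.495) were further from the threshold. None of 6 carriers of carboxylates, lipids and choline passed either. Slc27a1, a fatty acid transport protein, had groups that did not overlap, at 17.9 ± 0.44 and 16.3 ± 0.26 FPKM (log2 fold change -0.13, adjusted p = 0.0738). So did Slc16a6, a monocarboxylate family member, at 6.44 ± 0.23 and 5.53 ± 0.45 FPKM (log2 fold change -0.19, adjusted p = 0.105). The choline transporter-like genes Slc44a1 and Slc44a2 had estimates of 0.08 and -0.04 (adjusted p = 0.477 and 0.546). Of the organic ion class, Slc17a5 is given above, and Slc22a4, the ergothioneine transporter, measured 16.9 ± 0.52 and 17.6 ± 0.77 FPKM (adjusted p = 0.515).

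Of 14 members without an assigned substrate 2 fell, against 4.30% of all tested genes. Slc35f6 measured 36.6, 38.2 and 37.9 FPKM in NC against 32.8, 32.8 and 32.1 FPKM in NSUN2-KO, with no overlap (log2 fold change -0.20, SE 0.03, adjusted p = 0.0117). Its call was lost without NC replicate 3 or NSUN2-KO replicate 1 (adjusted p 0.0186 to 0.0616 over the 6 fits). Slc12a9, a relative of the cation-chloride cotransporters, measured 9.42, 10.5 and 10.1 FPKM in NC against 8.49, 7.52 and 8.68 FPKM in NSUN2-KO (log2 fold change -0.25, adjusted p = 0.0477), and lost its call without any one of the 6 libraries (0.0531 to 0.149). Slc35c2 (-0.18, adjusted p = 0.126) and Slc35e1 (-0.09, adjusted p = 0.354) were the next by p. The 3 genes named after a carrier did not pass: Slc9a3r1 measured 136.9 ± 4.83 and 144.6 ± 8.62 FPKM, Slc4a1ap 4.44 ± 0.20 and 4.80 ± 0.65 FPKM, and Slc7a6os 2.13 ± 0.11 and 2.08 ± 0.32 FPKM.

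**Figure D2:**
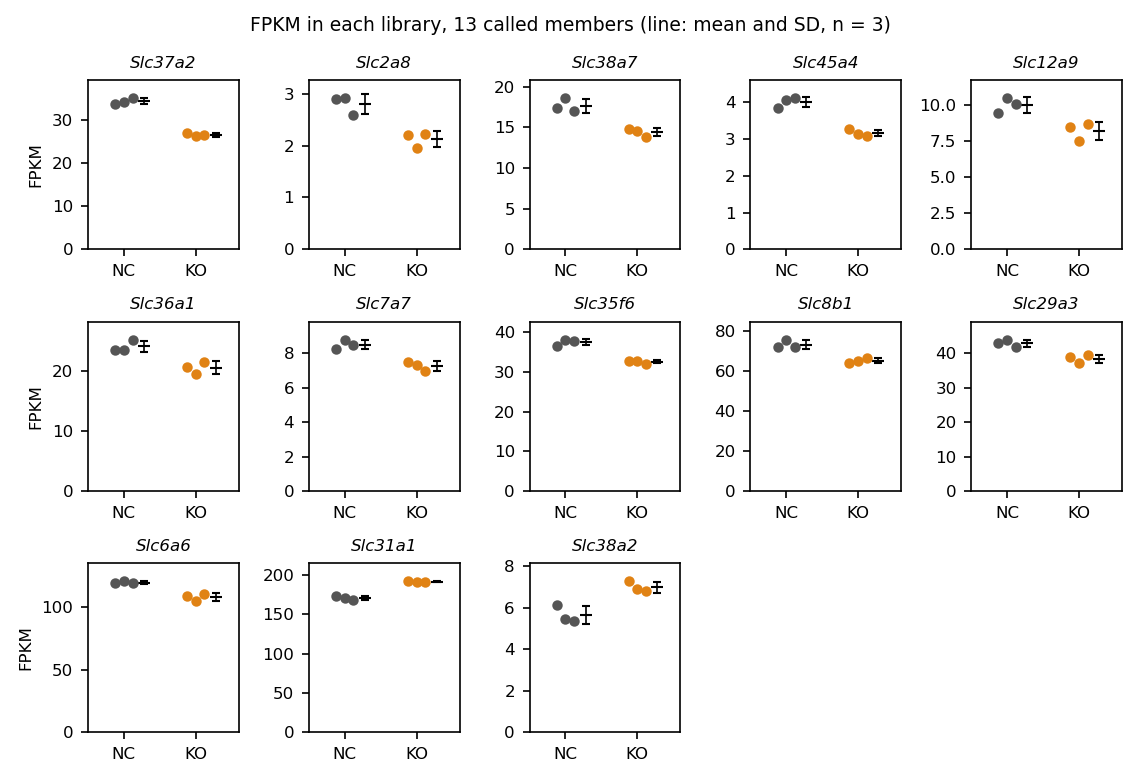
FPKM (vertical axes, each from 0) of the 13 members that passed, in each NC (grey) and NSUN2-KO (orange) library, with the mean and SD beside the points (n = 3). In each panel the points of one group lie wholly above those of the other, and the distance is small next to the level.

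Levels varied far more between carriers than between the groups. The mean over the 6 libraries ran from 1.01 to 317.6 FPKM with a median of 6.49, and the 5 highest members, Slc15a3, Slc31a2, Slc28a2, Slc7a8 and Slc31a1, made up 41.8% of the summed FPKM. Summed over all members, NC held 2798 ± 31.6 FPKM and NSUN2-KO 2744 ± 37.2 FPKM (SD, n = 3), with individual sums of 2776 to 2834 and 2704 to 2776 FPKM. The calls were not spread evenly over these levels. Of 21 members of at least 20 FPKM 6 fell and 1 rose, against 9.08% lower and 8.15% higher among all tested genes at that level. Of 38 members of 5 to 20 FPKM 3 fell and 1 rose, against 4.39% lower and 4.54% higher among tested genes of that level. Of 43 members under 5 FPKM 2 fell and none rose, against 1.81% lower and 1.91% higher. Of the 89 members that did not pass, 74 had a 95% interval of the log2 fold change inside 0.32 in either direction, on the log2(FPKM + 1) scale, which for low genes understates the change.

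**Figure D3:**
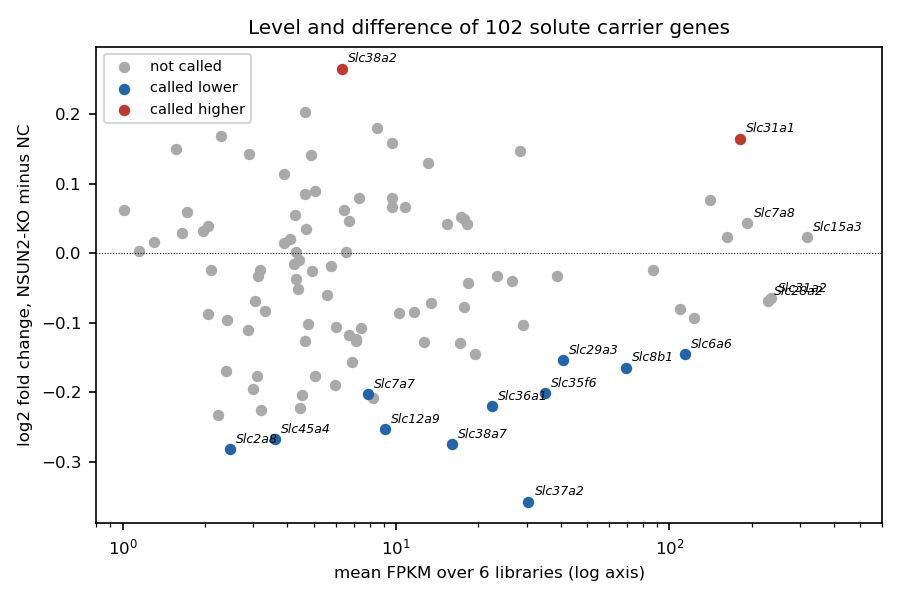
Log2 fold change (NSUN2-KO minus NC, of FPKM + 1) against the mean FPKM of the 6 libraries (log axis) for the 102 members, with the 13 that passed and the 5 highest named. Members that fell lie from 2.46 to 114.1 FPKM, and of the 5 highest members only Slc31a1 passed.

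Taken over all levels, fold changes of carriers followed the base composition of their transcripts, as those of all genes did. Spearman's correlation of the log2 fold change with GC content was -0.46 over the 102 members and -0.37 over 9433 tested genes. These values are descriptions, since genes of the same libraries are not independent. The relation was absent in the 21 members of at least 20 FPKM, at -0.01 against -0.48 over all tested genes of that level. It was -0.55 over the 38 members of 5 to 20 FPKM and -0.44 over the 43 under 5 FPKM. Within the 7 sugar carriers it was 0.36. Members that fell had a median GC content of 53.0%, members that did not pass 49.7%, and Slc31a1 and Slc38a2 43.7% and 44.7%. Tested genes were split into 3 equal bins by GC content. In the richest bin (above 52.4%) 8.02% fell, and of the 43 members in it 7 fell. In the middle bin 3.56% of tested genes and 4 of 30 members (13.3%) fell. In the poorest bin (up to 46.1%) 1.34% of tested genes and none of 29 members fell, while 2 of those 29 rose, or 6.90%, against 6.23% of tested genes. After removal of the GC content and gene length trends from every library, 7 members fell and 2 rose, all of them among the 13. Of all tested genes 4.09% fell and 4.65% rose in that fit. Slc37a2 kept nearly its whole difference (log2 fold change -0.35, adjusted p = 0.000635), and the sugar class kept a median of -0.18. No longer past the threshold were Slc2a8 (log2 fold change -0.28 before and -0.19 after, adjusted p = 0.138), Slc8b1 (-0.16 and -0.09, 0.0643), Slc12a9 (-0.25 and -0.17, 0.0623) and Slc7a7 (-0.20 and -0.16, 0.0540), and the median of the amino acid class went from -0.08 to -0.01.

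**Figure D4:**
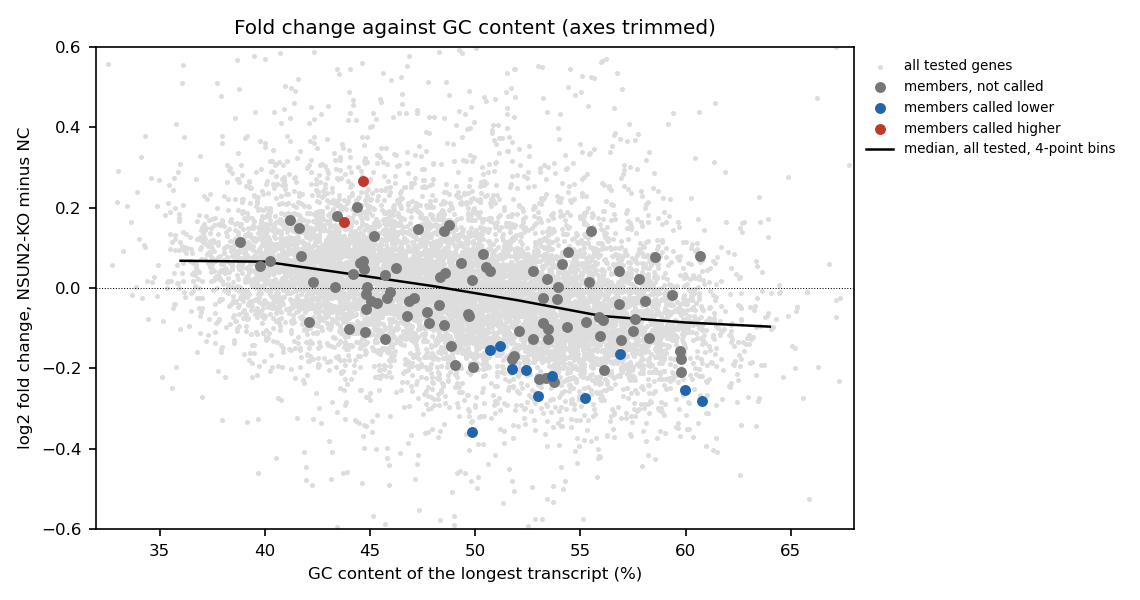
Log2 fold change (NSUN2-KO minus NC; vertical axis) against the GC content in percent of each gene's longest transcript, for all tested genes (pale), members that did not pass (grey), fell (blue) or rose (red); the line is the median of all tested genes in bins of 4 points, and genes beyond the trimmed axes are not drawn. The line declines with GC content, 10 of the 11 blue points lie above 50% GC and both red points below 45%.

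No member on the X chromosome passed. Slc6a8, the creatine transporter, measured 26.9 ± 0.88 and 26.1 ± 0.18 FPKM, Slc35a2, the UDP-galactose carrier, 4.89 ± 0.53 and 5.25 ± 0.30 FPKM, and Slc10a3 6.27 ± 0.17 and 5.78 ± 0.70 FPKM (adjusted p 0.438 to 0.539 for these 3). Near Nsun2 on chromosome 13 lay Slc6a19 and Slc12a7, 4.04 and 4.10 Mb away, and Slc35d2, 5.40 Mb away (log2 fold change -0.04, adjusted p = 0.785). In GRCm38 Slc37a2 lies on chromosome 9 (37227585 to 37255738, minus strand), Slc38a7 on chromosome 8 (95835920 to 95853539, minus strand), Slc31a1 on chromosome 4 (62360727 to 62391769, plus strand) and Slc38a2 on chromosome 15 (96687392 to 96699730, minus strand). Of the members, 18 overlap another gene above 1 FPKM, and the sources used here do not say whether counting used strand, so shared reads are uncertain. Among the 13 these are Slc37a2 with Gm10177 (14.98 ± 1.95 and 16.3 ± 1.16 FPKM), Slc31a1 with Cdc26 (4.06 ± 0.08 and 3.82 ± 0.16 FPKM) and Slc7a7 with Oxa1l (3.51 ± 0.35 and 2.98 ± 0.13 FPKM), all on the opposite strand and none called. At the expression threshold, the zinc importer Slc39a10 (mean 1.01 FPKM) and the nucleotide sugar carrier Slc35d1 (1.15) lay just inside, and Slc39a4 (0.946) and Slc26a6 (0.858) just outside. Slc39a10 was the only member with a group mean under 1 FPKM (0.962 in NC).

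Other transporter families, given for comparison, had calls in both directions, and their counts stand against 4.19% higher and 4.30% lower among all tested genes. The lean to lower values was not particular to the members, whose median log2 fold change was -0.04. It was -0.11 over genes with ABC transporter symbols (14 of 19 negative) and -0.06 over carrier-like genes without an Slc symbol (24 of 35 negative). Over the P-type ATPases it was -0.02 (11 of 19 negative), and over partner genes of carriers 0.00 (9 of 20 negative). Of 19 expressed genes with ABC transporter symbols 2 rose and 2 fell. The list was made by symbol and includes Abce1, Abcf1, Abcf2 and Abcf3, which are not membrane pumps and did not pass. Abcg1 (46.0 ± 0.90 to 32.3 ± 0.07 FPKM) and Abca1 (35.3 ± 0.98 to 28.3 ± 0.66 FPKM), the sterol exporters, fell, and Abcc4 and Abcd3 rose (log2 fold change 0.33 and 0.27). Of 19 P-type ATPases 3 rose, the lipid flippase genes Atp8b4, Atp11b and Atp10a (log2 fold change 0.32, 0.29 and 0.25), and 2 fell, among them Atp13a2, a lysosomal polyamine exporter (-0.23). Of 35 carrier-like genes without an Slc symbol 1 rose, the magnesium transporter Magt1 (log2 fold change 0.21), and 1 fell, Mfsd11 (-0.15). Spns1, a lysosomal lysophospholipid exporter (-0.16, adjusted p = 0.0799), and Tusc3 (0.20, adjusted p = 0.0912) did not pass. Of 20 partner genes of carriers Tfrc, the transferrin receptor, rose from 1.18 ± 0.08 to 1.82 ± 0.10 FPKM and Lamtor1, a lysosomal anchor of mTORC1, fell from 25.8 ± 0.74 to 23.2 ± 0.10 FPKM. Lamtor5 (-0.08, adjusted p = 0.209) and Oxsr1, a kinase that regulates cation-chloride cotransporters (0.09, adjusted p = 0.270), did not pass.

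The 13 calls differed in how they held when the processing was varied. Slc37a2 passed in all 18 alternative fits (adjusted p 1.56e-06 to 0.0148) and Slc38a7 in 17 of 18, missing with no filter on low values (adjusted p = 0.0575). Slc35f6 passed in 14 of 18 and Slc31a1 in 13 of 18. Slc12a9 passed in 5 of 18, Slc2a8 in 6 of 17, Slc7a7 and Slc29a3 in 7 of 18 each, Slc8b1 and Slc6a6 in 8 of 18 each, Slc45a4 in 9 of 17 and Slc36a1 and Slc38a2 in 9 of 18 each. In none of these fits did the sign of a called member change. Among the 18, median-ratio scaling divided every library by the same factor, so its calls were fixed in advance.

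**Figure D5:**
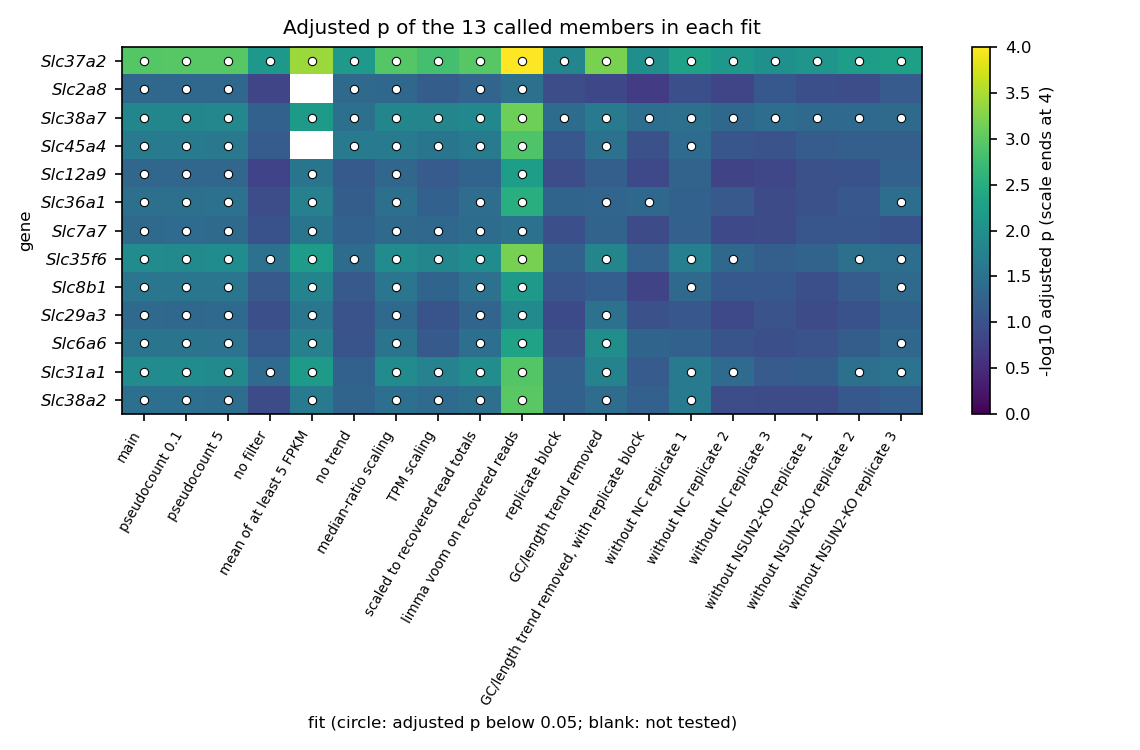
Adjusted p (colour, as -log10, ending at 4) of the 13 members that passed (rows, ordered by log2 fold change) in the fit as reported and in 18 alternatives (columns); a circle marks an adjusted p below 0.05 and a blank cell a gene not tested there. The rows of Slc37a2 and Slc38a7 are circled in 18 and 17 of the alternatives, and most other rows lose their circle in the fits without a library.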

How the data were processed

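The data are a table of FPKM values that the authors deposited for 6 RNA-seq libraries, 3 NSUN2-KO and 3 NC, with the gene length in bases. Per the submitters' processing notes, the build was GRCm38 (mm10) and the tools included DESeq2 1.20.0, featureCounts 1.5.0-p3, HISAT2 2.0.5, fastp and CASAVA 1.8. The sources used here do not give their settings. In the deposited values the median ratio to the geometric mean, over 15295 genes above 0 in all libraries, was equal in all 6 columns, so the FPKM had already been scaled across libraries by median ratios. FPKM times gene length fell on whole multiples of a fixed step for 100% of values above 0 (tolerance 0.01 reads), which gave the reads. For a 1 kb gene, 1 read equalled 0.0218 to 0.0285 FPKM. Columns of unassigned samples numbered 0.

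All 9443 genes averaging 1 FPKM or more were tested together in limma 3.58.1 (R 4.3.3), using log2(FPKM + 1), a mean-variance trend and no covariate, and the members' rows were read from that fit. The pseudocount of 1 FPKM shrinks the fold changes of low genes. The members, substrate classes and lists were chosen with earlier results of these data known, and the 3 genes that are not carriers were set apart after the members had been listed. Genes were named by rule: Nsun2, all called members, the 4 with the smallest p in each class, the 5 most abundant, those on X and those at the threshold, and up to 4 from each other list. Other members in the text were chosen after their values were seen, and some genes that the rule names are not reported here. Alternatives were pseudocounts of 0.1 and 5, a filter at 5 FPKM or none, a fit without the trend, median-ratio, TPM and read-total scaling, limma voom on the recovered reads, the replicate block, removal of a loess trend (span 0.5) over gene length and GC content (longest GENCODE vM21 transcript, available for 99.9% of tested genes) and leaving out each library. Python 3.11.15 was used with pandas 2.3.3 and matplotlib 3.10.9.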

Additional observations from a re-analysis of the deposited data

How the results depend on the processing

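Of 432 counts recomputed over all genes, members and classes, 316 stayed within 1.5 times the reported count and 116 did not. Pseudocounts of 0.1 and 5 kept all 13 member calls and added none. Median-ratio scaling did the same, but its factor was 1.00419 in all 6 libraries, so it repeats the reported fit and tests nothing. With read-total scaling, an alternative chosen after seeing the data, 12 were kept, and 1 member without an assigned substrate fell. With TPM scaling 5 members fell, against 3.24% of all genes, among them 2 amino acid carriers, 0 ion carriers, 0 nucleoside carriers and 1 without a substrate. With no filter on low values 147 genes rose and 118 fell in all, and 1 member rose, a metal carrier, and 2 fell. Those that fell were 0 amino acid, 0 ion and 0 nucleoside carriers, 1 without a substrate and 1 sugar carrier, and 0 amino acid carriers rose. With a mean of at least 5 FPKM 59 members were tested. Of these 3 rose and 11 fell, against 7.63% higher and 8.32% lower among all genes of that fit. Among them 2 amino acid carriers rose, and 5 amino acid, 1 nucleotide sugar and 1 sugar carrier fell. Without the trend 254 genes fell in all, 0 members rose (0 amino acid and 0 metal carriers) and 5 fell, with 1 amino acid carrier, 0 ion and 0 nucleoside carriers and 1 without a substrate. Limma voom on recovered reads gave 706 higher and 666 lower genes, and 6 members rose and 17 fell. Those that rose were 3 amino acid, 1 ion and 2 metal carriers. Those that fell included 5 amino acid, 1 carboxylate and lipid, 2 ion, 1 metal, 2 nucleoside and 1 nucleotide sugar carrier. The rest were sugar carriers and members without an assigned substrate. With GC content and gene length trends removed 7 members fell, against 4.09% of all genes, with 0 ion carriers and 1 without a substrate.

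The labels do not say whether the replicate numbers pair the samples. Same-numbered libraries had correlations of deviations from the group means of -0.01, -0.03 and 0.00, and differently numbered ones of -0.04 to 0.05. A shared replicate effect was thus not seen, which does not show how the libraries were prepared. With the replicate block 190 genes rose and 161 fell, and 0 members rose and 2 fell: 0 amino acid and 0 metal carriers rose, and 1 amino acid, 0 ion, 0 nucleoside and 1 sugar carrier and 0 without a substrate fell. With the replicate block and the GC content and gene length trends removed together, 250 genes rose and 212 fell, and 0 members rose and 3 fell: 0 amino acid and 0 metal carriers rose, and 2 amino acid, 0 ion, 0 nucleoside and 1 sugar carrier and 0 without a substrate fell.

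Leaving out each library in turn gave 149 to 312 higher and 121 to 283 lower genes in all, 0 to 2 higher and 2 to 6 lower members, 0 to 1 higher and 1 to 3 lower amino acid carriers, 0 to 1 lower ion carriers, 0 to 1 higher metal carriers, 0 lower nucleoside carriers, 0 to 1 lower without a substrate and 1 to 2 lower sugar carriers. Signs changed only in 4 named members that were not called. With the trends removed, with and without the block, Slc35d1 had a log2 fold change of -0.0323 and Slc6a8 of 0.0304. Over the fits without a library, Slc35d1 ranged from -0.0531 to 0.0748, Slc4a1ap from -0.00628 to 0.134 and Slc7a6os from -0.106 to 0.0413. The lowest read count of a member was 104 in a library, for Slc16a13, whose log2 fold change had a 95% interval of -0.19 to 0.22.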
